A study of Mus musculus with 18 samples.

Results

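The dystrophin and sarcoglycan complex was followed in RNA of mouse aorta through 10 genes, dystrophin (Dmd), utrophin (Utrn), dystroglycan (Dag1), α-, β-, δ- and ε-sarcoglycan (Sgca, Sgcb, Sgcd and Sgce), β1-syntrophin (Sntb1), α-dystrobrevin (Dtna) and sarcospan (Sspn). These members were chosen by gene symbol from the 36232 genes that the array tables name singly, and the brightest transcript cluster of each symbol was to be kept. Each symbol named just 1 cluster, so brightness decided nothing. The group as such was selected on earlier results of the same arrays, in which Dmd stood among the genes with lower signal after elastase. The differences of Dmd from normal aorta, with and without lenvatinib, are therefore given without a test, and counts over the members are descriptions.

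Aortic RNA was hybridised to 18 Mouse Transcriptome Array 1.0 chips, 1 per male mouse. The stated age of 10 weeks is the one the study's methods give for mice entering the aneurysm models. The labels give ApoE-/- mice, whereas the study's methods give C57BL/6J wild-type mice for the elastase model, and this difference could not be settled. Normal aortas (n = 5) came from untreated mice. In the PPE group (n = 6) the infrarenal aorta was perfused with porcine pancreatic elastase, which injures the elastic layers and leads to an aneurysm. The PPE + Lenva group (n = 7) received the same elastase perfusion and, by gavage, 5 mg/kg of lenvatinib in DMSO from day 7 to day 24, lenvatinib being an oral inhibitor of VEGF receptors and other tyrosine kinases. Aneurysm tissue was taken at day 28 after induction, in pieces of about 1 mm. The normal aortas had no sham operation, so surgery and elastase cannot be told apart, and whether the PPE mice were given DMSO is not given in the sources used here.

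The dystrophin complex ties the actin cytoskeleton of muscle cells to the basement membrane. Dystrophin or its homologue utrophin binds actin and dystroglycan, dystroglycan binds laminin outside the cell through sugar chains, sarcoglycans and sarcospan stabilise it within the membrane, and dystrobrevin and syntrophin recruit signalling proteins on the inner side. Vascular smooth muscle carries such a complex, and loss of δ- or β-sarcoglycan in mice disturbs both cardiac and vascular muscle.

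The Dmd cluster spanned the whole gene (mm10, chromosome X, plus strand, 82814910 to 85206141), so its signal pooled the long muscle and brain forms of dystrophin with the short forms made from late promoters. RefSeq promoters of build GRCm38.p6, each with 250 bases before and 50 after a start site, were listed for 7 of the 10 members. Both promoters listed for Dmd and that of Sgcd are printed because Dmd had the largest difference of the members and Sgcd was among the members lower in both comparisons with normal aorta. Capitals mark matches on either strand to a CArG box (the element bound by serum response factor), CATTCC (the MCAT element), CAGCTG (an E-box) or GGGCGG (a GC box).
Dmd, chrX:82948620-82948919, plus strand: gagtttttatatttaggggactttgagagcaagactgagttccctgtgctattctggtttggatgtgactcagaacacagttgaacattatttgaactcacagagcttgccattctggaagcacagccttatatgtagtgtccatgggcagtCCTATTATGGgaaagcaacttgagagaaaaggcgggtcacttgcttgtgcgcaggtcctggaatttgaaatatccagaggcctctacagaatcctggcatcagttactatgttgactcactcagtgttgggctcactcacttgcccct
Dmd, chrX:85048045-85048344, plus strand: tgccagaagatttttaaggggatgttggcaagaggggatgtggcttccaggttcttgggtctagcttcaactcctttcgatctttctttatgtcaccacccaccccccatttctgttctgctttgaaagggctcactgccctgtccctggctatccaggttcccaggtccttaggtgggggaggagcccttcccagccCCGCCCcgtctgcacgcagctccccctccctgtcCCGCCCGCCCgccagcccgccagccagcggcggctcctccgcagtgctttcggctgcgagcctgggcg
Sgcd, chr11:47379276-47379575, minus strand: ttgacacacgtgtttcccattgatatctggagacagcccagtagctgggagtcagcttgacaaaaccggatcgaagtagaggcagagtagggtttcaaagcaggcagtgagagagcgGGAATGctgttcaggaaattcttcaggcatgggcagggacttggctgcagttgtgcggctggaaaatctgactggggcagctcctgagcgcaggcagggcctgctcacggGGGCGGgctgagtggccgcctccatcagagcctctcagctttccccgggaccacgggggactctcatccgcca
The first Dmd promoter held a CArG box 98 bases before its start site, and such a match lies in 1.63% of the 32851 promoters listed. No other promoter of a member held one. The second Dmd promoter lay far downstream within the gene and held 3 GC boxes, the last 2 of which overlap, at 52, 18 and 14 bases before its start site. GC boxes were found in 5 of the 10 member promoters and in 35.7% of all. The Sgcd promoter held an MCAT element at base -133 and a GC box at base -23. The promoter of Sgca, also lower in both comparisons, is not printed and held no match to any of these elements. MCAT elements lay in 3 of the 10 member promoters, Sgcd and both of Sspn, and in 14.7% of all, and no member promoter held the E-box, which 16.3% of all promoters did. A match is a description of these letters and not evidence of binding.

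Dystrophin had the largest difference of the 10 members after elastase. In normal aorta the log2 signals of Dmd were 13.14, 12.59, 13.40, 12.73 and 12.30 in replicates 1 to 5. In PPE aortas they ran from 8.76 to 10.15 with a median of 9.39. All 6 PPE arrays thus lay below all 5 normal arrays. The means were 12.83 ± 0.44 (SD, n = 5) and 9.43 ± 0.50 (SD, n = 6), a log2 difference of -3.41 (95% confidence interval -4.38 to -2.43), which left 9.44% of the normal signal. By size of fall Dmd stood at place 8 of the 36232 genes. In bulk tissue, fewer cells of a type and less RNA per cell cannot be told apart.

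**Figure D1:**
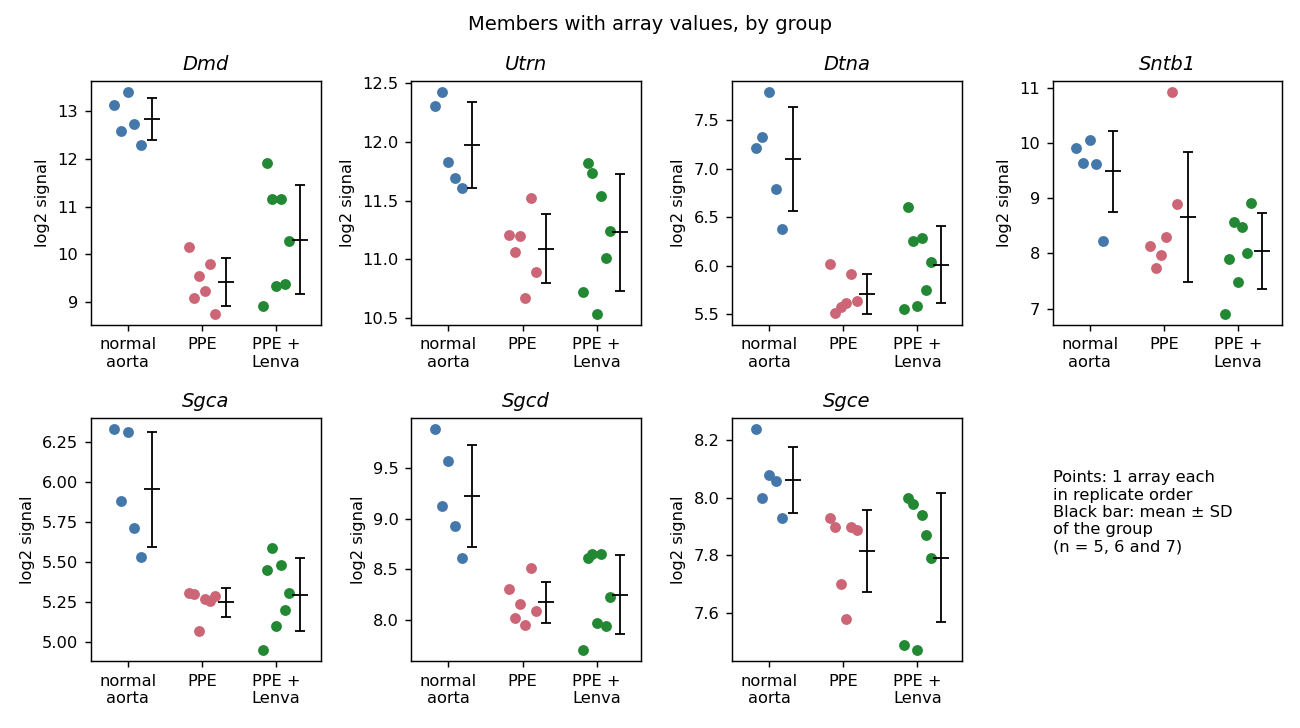
Log2 signal (y axis) of the 7 members with values for single arrays, in normal aorta (n = 5), PPE (n = 6) and PPE + Lenva (n = 7). Each point is 1 array and black bars give mean and SD. The 5 normal arrays lie above all PPE arrays for Dmd, Utrn, Dtna, Sgca and Sgcd. Dmd of PPE + Lenva is spread from 8.91 to 11.92. These 7 members had passed the authors' overall test of the groups, and the share of all clusters without overlap was not counted.

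Utrophin, which can stand in for dystrophin in muscle that lacks it, had a smaller difference. Its signals were 12.30, 12.42, 11.83, 11.69 and 11.61 in the normal aortas and ran from 10.67 to 11.52 in PPE with a median of 11.13, without overlap. Utrn fell by 0.88 on the log2 scale (SE 0.23, limma adjusted p = 0.0416). This call was close to the threshold, and it was lost when any 1 of normal replicates 1, 2 or 3, PPE replicates 1, 2, 3, 4 or 6 was left out, with adjusted p up to 0.109. The count of members called lower likewise became 4 without PPE + Lenva replicate 7, which enters the shared spread. Median centring of the arrays also ended it (adjusted p = 0.0514), as did the authors' averages in place of the array means (adjusted p = 0.0598).

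Of the scaffold genes on the inner side of the membrane, Dtna was called lower and Sntb1 was not. These genes were not tested against each other. α-Dystrobrevin, the dystrophin-related partner of syntrophins, had Dtna signals of 7.21, 7.33, 7.79, 6.79 and 6.38 in normal aorta and of 5.51 to 6.02, median 5.63, in PPE. The groups did not overlap and Dtna fell by 1.39 (SE 0.23, limma adjusted p = 0.00199). β1-Syntrophin, a PDZ adaptor that binds dystrophin and channels, had the widest spread of the members in normal aorta and in PPE. Sntb1 signals were 9.91, 9.64, 10.06, 9.62 and 8.22 in normal aorta and ran from 7.73 to 10.92, median 8.22, in PPE. The highest of all 18 values was that of PPE replicate 5, and the lowest normal value was that of replicate 5, so the groups overlapped. The log2 difference of -0.83 (95% confidence interval -1.90 to 0.24) did not pass (limma adjusted p = 0.427), and its interval includes the Dtna value of -1.39. Without PPE replicate 5 it was -1.28 (adjusted p = 0.0614). The authors' averages, which are not the plain means of the arrays, gave -1.60 (adjusted p = 0.0809).

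Among the sarcoglycans, which form a subcomplex beside dystroglycan, the α and δ genes were lower. δ-Sarcoglycan, a core subunit in smooth as in striated muscle, had Sgcd signals of 9.89, 9.13, 9.57, 8.93 and 8.61 in normal aorta and of 7.95 to 8.51, median 8.13, in PPE. The ranges did not overlap and Sgcd fell by 1.05 (SE 0.22, limma adjusted p = 0.0117). α-Sarcoglycan is known chiefly from striated muscle, where it takes the place that ε-sarcoglycan holds in smooth muscle and other tissues. Sgca signals were low throughout, at 6.33, 5.88, 6.31, 5.71 and 5.53 in normal aorta and 5.07 to 5.31, median 5.28, in PPE, whereas the middle cluster of the array had an authors' average of 4.09 over the groups. Sgca fell by 0.70 (SE 0.14, limma adjusted p = 0.00889), again without overlap. Sgce signals were 8.24, 8.00, 8.08, 8.06 and 7.93 in normal aorta and 7.58 to 7.93, median 7.90, in PPE. Both groups held the value 7.93, and the log2 difference of -0.25 (95% confidence interval -0.46 to -0.03) did not pass over all clusters (limma adjusted p = 0.195).

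The remaining members had group averages and SDs but no values for single arrays. β-Sarcoglycan, the partner of δ-sarcoglycan in the core, had authors' averages for Sgcb of 9.74 in normal aorta, 9.32 in PPE and 9.57 in PPE + Lenva. Its log2 difference after elastase was -0.42 (95% confidence interval -0.85 to 0.01, limma adjusted p = 0.273). For Dag1, whose product is cleaved into the laminin-binding α- and the membrane-spanning β-dystroglycan, the authors' averages were 7.21, 7.20 and 7.15 in the same order, and the interval of the difference after elastase ran from -0.27 to 0.25. Sspn, a tetraspanin-like membrane protein, had authors' averages of 5.99, 5.70 and 5.70, and its difference after elastase was -0.29 (95% confidence interval -0.62 to 0.04, limma adjusted p = 0.342). Single-array values are held just for the clusters whose groups differed in the authors' overall test. These 3 members had thus missed that test and the 7 others had passed it. Ranges without overlap are more likely among clusters that passed it, and their share over all clusters was not counted.

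Counted over all 10 members, 5, Dmd among them, had lower signal after elastase at an adjusted p under 0.05 and none had higher signal. Over the 65956 clusters, 2.62% were called lower and 1.39% higher. The median log2 difference of the members was -0.77, against -0.02 over all clusters. All 10 members lay below 0, as did 55.7% of all clusters.

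**Figure D2:**
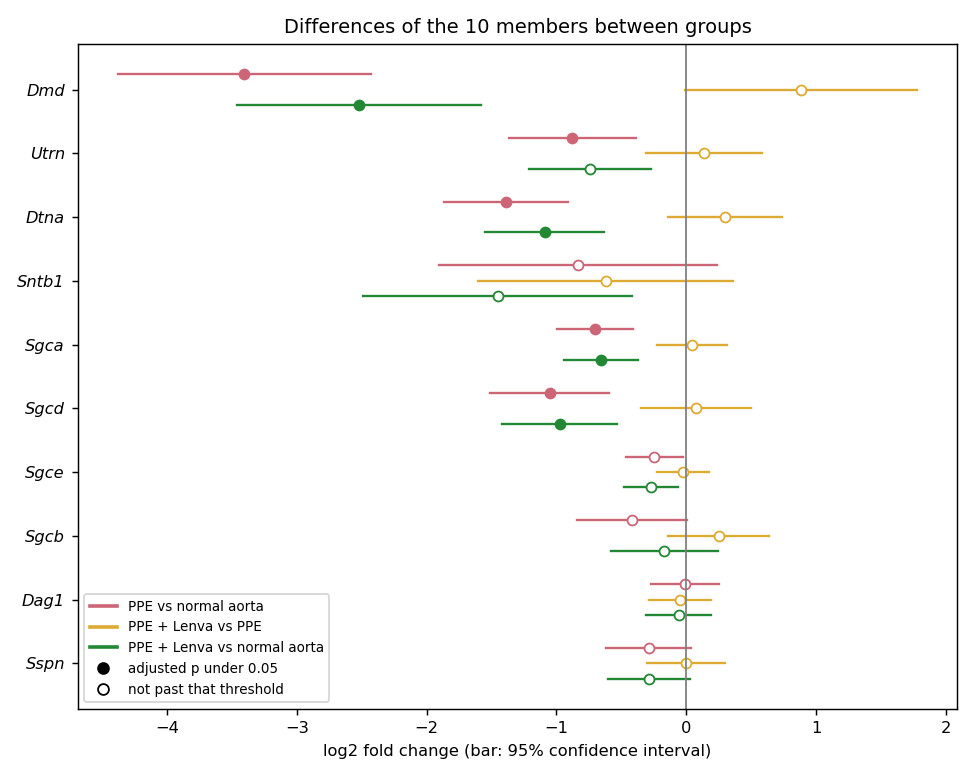
Log2 fold change (x axis) of the 10 members in the 3 comparisons, with 95% confidence intervals; filled points passed an adjusted p of 0.05. The differences from normal aorta lie at or left of 0, with Dmd farthest at -3.41 and -2.52. The intervals of PPE + Lenva against PPE include 0 for all 10. The group was selected on the fall of Dmd, so its filled points are no test.

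The comparison of lenvatinib with elastase alone asked whether treatment moved the members. No member was called, and neither was any other cluster of the array, so the background was 0% lower and 0% higher by limma. At an unadjusted p under 0.05 limma also passed 0 of the 10 members, and 1593 clusters lower and 2285 higher. Dmd signals with lenvatinib were 8.91 at the lowest, 10.29 at the median and 11.92 at the highest. Replicates 2, 3, 5 and 7, at 11.92, 11.16, 11.17 and 10.29, lay above every PPE array, and replicates 1, 4 and 6, at 8.91, 9.34 and 9.39, lay within the PPE range. The log2 difference was 0.88 (SE 0.42, 95% confidence interval -0.01 to 1.78, limma adjusted p = 0.85), and a two-sided exact permutation test of this gene alone gave p = 0.112 (n = 7 and 6). The SD of Dmd with lenvatinib was 1.14, against 0.50 in PPE.

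Replicate 2, the highest for Dmd, was also the highest for Dtna, Utrn and Sgce. Sgca peaked in replicate 3 at 5.59 and Sgcd in replicates 3 and 5 at 8.65. Sntb1 peaked in replicate 7 at 8.91 and stood at 7.89 in replicate 2. Dtna ran from 5.55 to 6.60 with lenvatinib, with a median of 6.04, and was highest in replicate 2 at 6.60. Utrn ran from 10.54 to 11.82 with a median of 11.24, and was highest in replicate 2 and lowest in replicate 4. The log2 differences from PPE were 0.30 for Dtna (95% confidence interval -0.14 to 0.74) and 0.14 for Utrn (-0.31 to 0.59). For the sarcoglycans the differences were 0.05 for Sgca (-0.22 to 0.32), 0.08 for Sgcd (-0.35 to 0.50), 0.25 for Sgcb (-0.14 to 0.64) and -0.03 for Sgce (-0.22 to 0.20). Dag1 differed by -0.05 (-0.29 to 0.19) and Sspn by 0.00 (-0.30 to 0.30). Changes of over about 1 log2 unit lay outside all of these intervals. Sntb1 differed by -0.62 (-1.61 to 0.36), a value that became -0.17 without PPE replicate 5 and -0.13 with the authors' averages.

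Lenvatinib-treated aneurysms still differed from normal aorta. Of the 10 members, 4 were called lower, Dmd among them, and none higher, while 3.33% of clusters were lower and 2.75% higher. The median of the members was -0.70 against -0.01 over all clusters. Dmd was lower by 2.52 log2 units (SE 0.45, limma adjusted p = 0.00375), and its highest treated array, at 11.92, lay below the lowest normal array at 12.30. Dtna fell by 1.09 (limma adjusted p = 0.00797), Sgcd by 0.98 (0.0124) and Sgca by 0.65 (0.0094), each with ranges that overlapped at 1 end. The calls of Dtna, Sgcd and Sgca held in each of the 12 fits that left out 1 array of these groups. No member was called in the fit with a replicate block over replicates 1 to 5, given in the last section. Utrn, at -0.74, missed the threshold (limma adjusted p = 0.0595) and passed it without PPE + Lenva replicate 2 (0.0309) or replicate 3 (0.0375). Sntb1, at -1.45, missed it as well (limma adjusted p = 0.0911) and passed without normal replicate 5, the low normal array (0.0442), or with the authors' averages (-1.73, adjusted p = 0.0447). Sgce differed by -0.27 (adjusted p = 0.119), Sgcb by -0.17, Sspn by -0.29 and Dag1 by -0.06, none of which passed. This comparison shares its normal arrays with that of PPE, so the likeness of both sets of values is not independent.

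Within single arrays, Dmd and its homologue Utrn were set against each other, as were Sgca and its homologue Sgce, in 6 comparisons of the within-array log2 difference. In normal aorta Dmd stood 0.86 ± 0.51 (SD, n = 5) above Utrn on this scale, in PPE it stood at -1.67 ± 0.38 (SD, n = 6) and in PPE + Lenva at -0.92 ± 0.69 (SD, n = 7), values that depend on the probes and have meaning only between groups. The difference of Dmd minus Utrn moved by -2.53 between PPE and normal aorta (95% confidence interval -3.20 to -1.86), given without a test since it holds the fall of Dmd on which the genes were selected. Between PPE + Lenva and PPE it moved by 0.75 (95% confidence interval 0.13 to 1.36), and the two-sided exact permutation test gave p = 0.0408, or 0.051 after Benjamini-Hochberg adjustment over the 5 comparisons left without the selected one, which did not pass. Adjusted over all 6 it was 0.049, so a pass would rest on the selected contrast, and the test also uses the low PPE arrays of Dmd that drew attention to the gene. Adjusted over the 6, the exact p lay between 0.0545 and 0.0985 when PPE replicate 2, 3, 5 or 6 or PPE + Lenva replicate 2, 3, 4, 5 or 7 was left out, while the difference stayed between 0.58 and 0.90.

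The log2 signals of Sgca and Sgce changed unequally after elastase. Sgca signals were low, and signal compression at low intensity was not measured. Both genes had array values because they had passed the authors' overall test on these arrays. Sgca minus Sgce was -2.11 ± 0.27 (SD, n = 5) in normal aorta, -2.57 ± 0.13 (SD, n = 6) in PPE and -2.49 ± 0.10 (SD, n = 7) in PPE + Lenva. The shift of -0.46 in PPE (95% confidence interval -0.67 to -0.24) had an adjusted p of 0.0144 over the 5 in the two-sided exact permutation test, and the shift of -0.38 in PPE + Lenva against normal aorta one of 0.00947. Between PPE + Lenva and PPE the shift was 0.07 (95% confidence interval -0.12 to 0.27, adjusted exact p = 0.281), and over the 6 comparisons it passed in 1 of 13 fits, that without PPE replicate 4 (0.12, adjusted exact p = 0.0318).

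**Figure D3:**
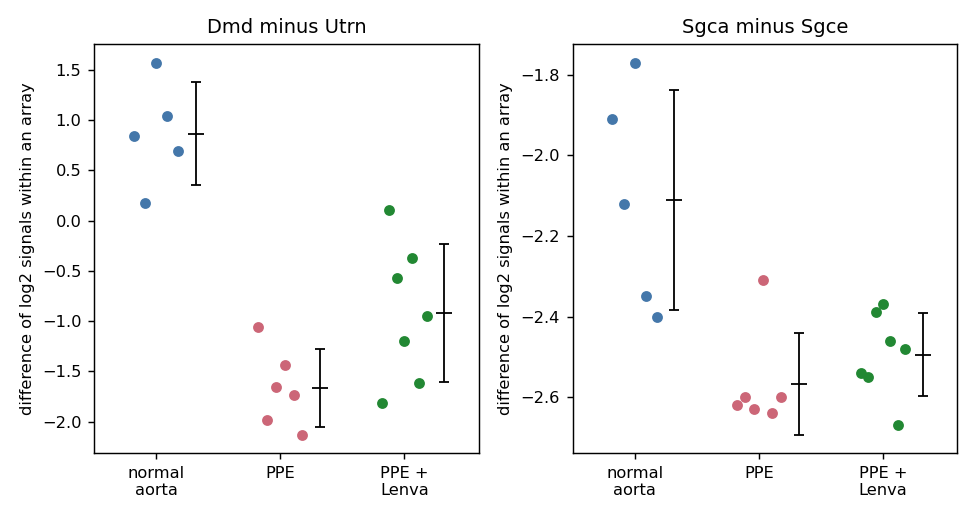
Within-array difference of log2 signals (y axis) of Dmd minus Utrn and of Sgca minus Sgce in normal aorta (n = 5), PPE (n = 6) and PPE + Lenva (n = 7). Points are arrays and black bars mean and SD. Dmd minus Utrn averages 0.86, -1.67 and -0.92 in the groups, and Sgca minus Sgce -2.11, -2.57 and -2.49.

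The wider complex was taken from a list of 43 genes, namely further subunits and partners, matrix ligands of dystroglycan and the enzymes that build its sugar chains, of which 40 were measured. In PPE against normal aorta 8 were lower and 0 higher by limma, with a median of -0.08 against -0.02 over all clusters and a background of 2.62% lower and 1.39% higher. At an unadjusted p under 0.05 limma passed 11 lower and 2 higher of the 40, where 11.3% of all clusters were lower and 7.59% higher. In PPE + Lenva against normal aorta 8 were again lower and 0 higher, on a background of 3.33% lower and 2.75% higher. Against PPE limma called none in either direction, and at an unadjusted p under 0.05 it passed 0 lower and 1 higher, where 2.42% of all clusters were lower and 3.46% higher. Left out alone, normal replicate 3 lowered the count of 8 to 4 in PPE and to 5 in PPE + Lenva against normal aorta, and leaving out any other single array moved it by less than 1.5 times.

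Of the 13 further subunits and partners reported, 2 fell. Sntg2, for γ2-syntrophin, fell by 0.85 (limma adjusted p = 0.00027) and Ank2, for the spectrin-binding ankyrin B, by 0.83 (adjusted p = 0.0263). Cav3, the muscle caveolin, was chosen after its values were seen and is outside the rule for named genes. Its log2 difference of 0.30 between PPE + Lenva and PPE was the one that passed an unadjusted p under 0.05 in that comparison, and its limma adjusted p was 0.766.

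Of the 12 matrix ligands, 4 fell. Over the 12 the median log2 difference after elastase was -0.149, and 6 lay below 0. Lamb1, a laminin β chain named outside the rule, was higher by 0.59 (95% confidence interval 0.16 to 1.03, limma adjusted p = 0.115), which did not pass. Lama2, the laminin α2 chain of muscle basement membranes, ran from 8.85 to 10.56 in normal aorta, from 7.41 to 8.61 in PPE and from 6.33 to 8.19 with lenvatinib. It fell by 1.67 after elastase (SE 0.36, limma adjusted p = 0.0156) and differed by -2.27 in PPE + Lenva against normal aorta (adjusted p = 0.00147), and neither range overlapped that of normal aorta. The other laminin α chains that fell were Lama4 (0.93, adjusted p = 0.0401) and Lama5 (0.65, adjusted p = 0.0102). Egflam, for pikachurin, a dystroglycan ligand known from retina, fell by 0.31 at a low signal (adjusted p = 0.00946). Lama2 differed by -0.60 between PPE + Lenva and PPE (95% confidence interval -1.31 to 0.10).

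Of the 15 measured glycosylation enzymes, 2 fell. B3galnt2, which adds N-acetylgalactosamine to the laminin-binding chain, fell by 0.91 (SE 0.16, limma adjusted p = 0.00434), and Large, which lengthens the repeat that laminin binds, by 0.85 (SE 0.19, adjusted p = 0.0181). In PPE + Lenva they fell from normal aorta by 0.68 (adjusted p = 0.0182) and by 0.71 (adjusted p = 0.0311).

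**Figure D4:**
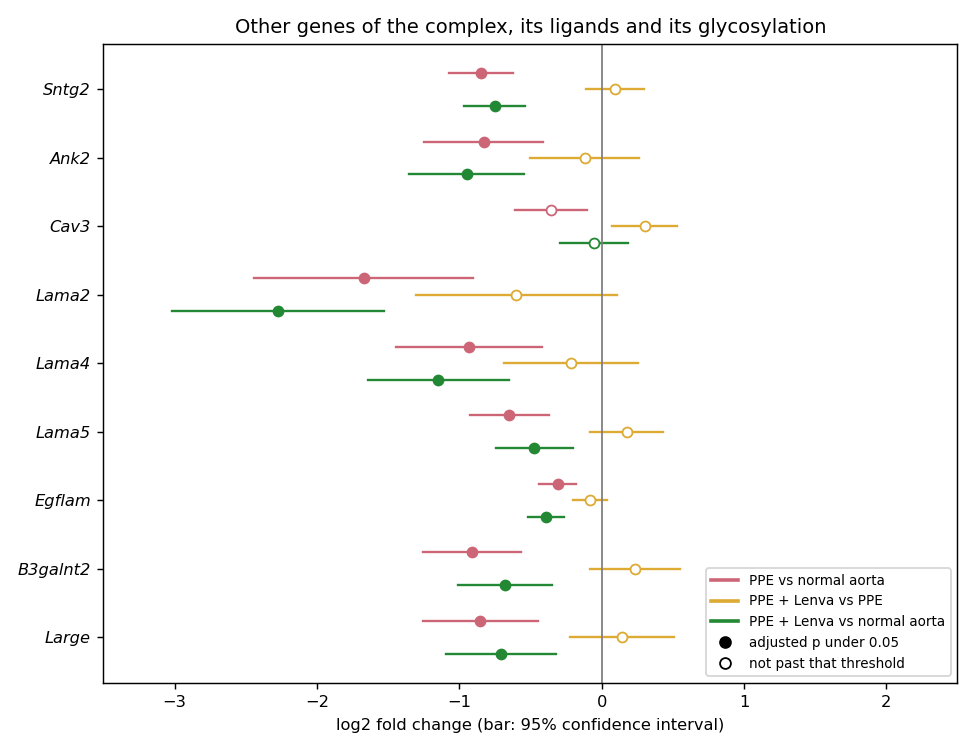
Log2 fold change (x axis) of the 8 called genes of the wider complex and of Cav3 in the 3 comparisons, with 95% confidence intervals; filled points passed an adjusted p of 0.05. Against normal aorta the called genes lie between -0.31 for Egflam and -2.27 for Lama2, and no point of PPE + Lenva against PPE is filled.

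Marker lists of cell types differed in direction after elastase. None was called of 7 fibroblast, 8 Schwann cell and nerve or 8 adipocyte markers, with median log2 differences of 0, -0.02 and -0.985. Of 10 smooth muscle markers, 6 were called lower after elastase and 1 in PPE + Lenva against normal aorta, and the mean of the list per array was 10.4 to 12.0 in normal aorta, 9.56 to 10.0 in PPE and 9.40 to 11.3 in PPE + Lenva. Myh11, the smooth muscle myosin heavy chain, differed by -3.12 (limma adjusted p = 0.00523) where Dmd differed by -3.41. With the authors' averages in place of the array means the differences were -3.94 for Myh11 and -3.40 for Dmd, so the order of these genes depends on how the arrays are averaged. Macrophage markers were higher for 8 of 8 in both comparisons with normal aorta, with means per array of 8.99 to 11.3, 11.7 to 13.3 and 11.6 to 13.4. Endothelial markers were called lower for 3 of 8 in PPE and 4 of 8 in PPE + Lenva, and in PPE 6 of the 8 lay below 0. The part of these shifts in the values of the members was not tested. The 12 skeletal muscle markers had authors' averages between 3.37 and 5.16, and 0 of 12 were called in any comparison. Among them Ckm differed by -0.08 after elastase. Sgca had authors' averages of 5.94 in normal aorta, 5.29 in PPE and 5.31 in PPE + Lenva. Whether skeletal muscle contributed to the Sgca signal was not tested. Of 6 cardiac markers, Actc1 alone was called, lower by 1.23 in PPE.

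How the members varied from mouse to mouse was read from the deviation of each array from its group mean over the 18 arrays. Over 7 relations with Dmd, Dtna followed it with r = 0.82 (rho = 0.84), Sgcd with r = 0.81 (rho = 0.86) and Utrn with r = 0.78 (rho = 0.77). Sgce had r = 0.71 (rho = 0.73) and Sgca r = 0.68 (rho = 0.70). Sntb1 had the weakest relation, at r = 0.41 (rho = 0.51). The adjusted permutation p over the 7 relations was 0.00014 for Dtna, 0.00016 for Sgcd, 0.00028 for Utrn, 0.0014 for Sgce, 0.0024 for Sgca and 0.093 for Sntb1 by Pearson, and 7e-05, 7e-05, 0.00059, 0.0012, 0.0021 and 0.031 by Spearman. The unadjusted permutation p values in the same order were 4e-05, 7e-05, 0.00016, 0.001, 0.0021 and 0.093 by Pearson, and 2e-05, 2e-05, 0.00034, 0.00089, 0.0018 and 0.031 by Spearman. These permutations moved values over all 18 arrays regardless of group. The SD of Dmd was 0.44 in normal aorta, 0.50 in PPE and 1.14 in PPE + Lenva, so the permutation p values are approximate. Without the 2 arrays farthest from the median of Dmd, r was 0.75 for Dtna, 0.79 for Sgcd, 0.70 for Utrn, 0.57 for Sgce, 0.64 for Sgca and 0.41 for Sntb1.

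The smooth muscle marker Myh11 followed Dmd with r = 0.88 and rho = 0.87 (adjusted permutation p = 7e-05 for both, unadjusted 1e-05, the smallest that the resampling can give, and 3e-05), and with r = 0.82 without those 2 arrays. Over all 10 smooth muscle markers r with Dmd ran from 0.29 to 0.89, and over the 8 macrophage markers from -0.75 to -0.28. Across the 6873 other genes with array values the median r with Dmd was -0.02 and the 95th percentile 0.65, so Sntb1 lay below that percentile and the other 5 members above it. The 5 genes most like Dmd by Pearson correlation over the 18 arrays were Slmap (0.96), Itga8 (0.96), Enah (0.95), Cped1 (0.94) and Pde5a (0.93). Slmap encodes a membrane-anchored protein of the sarcolemma, Itga8 the integrin α8 chain of smooth muscle, Enah an actin regulator and Pde5a the phosphodiesterase that degrades cyclic GMP. Itga8 ran from 16.6 to 18.3 in normal aorta, from 13.6 to 15.1 in PPE and from 13.5 to 17.3 in PPE + Lenva, where Dmd too had its widest spread.

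**Figure D5:**
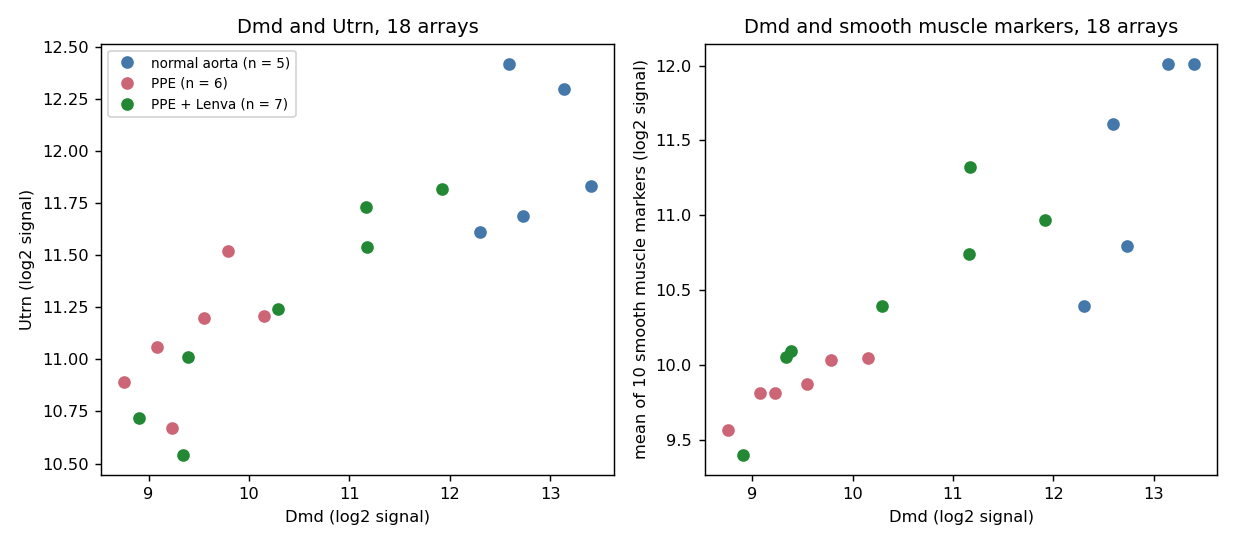
Dmd log2 signal (x axis) of the 18 arrays against Utrn (left) and against the mean of 10 smooth muscle markers (right), both on the log2 scale. Each point is 1 array, coloured by group. The PPE + Lenva arrays run from the PPE range at a Dmd signal of 8.91 toward the normal aortas at 11.92, without reaching the lowest normal array at 12.30.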

How the data were processed

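Total RNA of the 18 aortas (RNA integrity numbers 5.7 to 9.8) was hybridised to the arrays, and the authors summarised and normalised the probes to log2 signals by SST-RMA (Transcriptome Analysis Console, version 4.0.1.36, mm10, per the submitters' processing notes and methods). Deposited log2 values of single arrays cover 11121 clusters that passed the authors' overall test, and deposited tables give other values, the authors' group averages and SDs, for 65956. Their fold change and p-value columns were not used. limma 3.58.1 (R 4.3.3) was fitted to all 3 groups, on array values where held and otherwise on averages and SDs, with 1 variance prior from all clusters (1.96 degrees of freedom, SD 0.129) and Benjamini-Hochberg adjustment over all. Of the clusters without array values, 41 were called in PPE and 120 in PPE + Lenva against normal aorta. Array medians were 5.45 to 5.66, and the number of arrays limits the precision. Replicates are separate mice. The highest correlation between arrays was 0.991. Pairs of genes were compared by exact permutation over arrays, and correlations by 100000 permutations. Procedures were tested on simulated data. Members and lists were chosen with earlier results of these data known. Named were all members, list genes past the threshold, the up to 4 brightest markers per list (Ckm and Actc1 as well, where a statement turns on them) and the 5 genes most like Dmd. Alternatives were another prior, scaling, weights, tests, filters, thresholds, a replicate block and leaving out arrays. One further gene of the wider complex is not reported here.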

Additional observations from a re-analysis of the deposited data

Results flagged for a closer look

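Within groups, 21 sets of array values of the 7 members were searched for a single far array, and such a search flags about 1 in 20 sets by chance. In PPE, Sntb1 stood at 10.92 in replicate 5, with the next array at 8.89. In normal aorta, Sntb1 stood at 8.22 in replicate 5, with the next at 9.62. In PPE, Sgca stood at 5.07 in replicate 3, below the next array at 5.26, in a group whose whole range was 0.24. Both Sntb1 arrays widen the overlap of these groups.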

How the results depend on the processing

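Under the alternatives the calls of Dtna, Sgca and Sgcd in PPE against normal aorta were lost just under the replicate block (Sgca and Sgcd) and under the demand for a 2-fold change (Sgca), and Utrn was the least stable. Requiring an unadjusted p under 0.05 and a 2-fold change gave 3 members and 1 other complex gene in PPE against normal aorta, and 2 other complex genes in PPE + Lenva against normal aorta. With the arrays of these 2 groups alone, 5 other complex genes were called in PPE + Lenva against normal aorta. Residuals of same-numbered arrays correlated between -0.57 and 0.49. Arrays of different numbers were not set beside them, so these values cannot decide whether the replicate numbers pair the mice. With a replicate block over replicates 1 to 5, 2 members and 2 other complex genes were called in PPE against normal aorta, and 0 and 4 in PPE + Lenva against normal aorta. Leaving out single arrays, members called ranged from 4 to 5 in both comparisons with normal aorta and other complex genes from 4 to 9 in PPE and from 5 to 9 in PPE + Lenva against normal aorta. Dmd minus Utrn in PPE + Lenva against PPE, at 0.75, did not pass once the p was adjusted without the contrast on which Dmd was selected, an alternative chosen after seeing the data, and it ranged from 0.58 to 0.90 and Sgca minus Sgce from 0.052 to 0.124. The sign of 2 uncalled values near 0 in PPE + Lenva against PPE turned, Sgca between -0.0017 and 0.105, negative without PPE + Lenva replicate 3, and Sgce between -0.073 and 0.028, positive without PPE + Lenva replicate 1 (0.025) or 4. Of 564 single-member values under the alternatives, 528 kept direction and side of the threshold. Signal compression at low intensity was not measured, and 3 members have no array values, so leaving out arrays says nothing of them.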
